A study of Mus musculus with 5 samples.

Results

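The cytosolic ribosomal protein genes encode the protein components of the ribosome in the cytoplasm. They were taken here as the 82 genes, of 17267 in the count table, whose symbols follow the Rps, Rpl, Rplp or Rpsa naming, with the Rps6k kinases left out. Of these, 32 belong to the small subunit and 50 to the large subunit. They were described in single cells of lumbar dorsal root ganglia (DRG), the ganglia that hold the cell bodies of the sensory neurons of the spinal nerves, from untreated wild type C57BL/6 mice aged 18 weeks. The ganglia were dissociated with enzymes, and droplet libraries that read the 3′ ends of transcripts gave 3352 cells in 5 libraries. Each library was treated as 1 mouse, and the cells carried the study's annotation of 14 types. There was no treatment and no second genotype, so every comparison is between cell types.

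Of the 14 types, 12 are sensory neurons. The annotation groups 3 as neurofilament types (NF, large myelinated neurons), 3 as non-peptidergic types (NP) and 5 as peptidergic types (PEP), with the C-low-threshold mechanoreceptors marked by tyrosine hydroxylase (Th) as the remaining type. Satellite glia, which wrap the neuronal cell bodies, and endothelial cells of the blood vessels complete the list. The libraries held 164 to 1370 cells and 13050375 to 88886919 UMIs (unique molecular identifiers, each counted once as a captured molecule). A sum of 1 type in 1 library held 3 to 463 cells, and 9 of the 70 sums held fewer than 10. The summed level of 8 neuron markers was 14659 to 16302 CPM (UMIs of a gene scaled to a common total for every sum) over the libraries in neurons, against 325 to 1037 in satellite glia and 360 to 1349 in endothelial cells. The 7 satellite glia markers summed to 80350 to 104110 CPM in satellite glia, and the 7 endothelial markers to 8805 to 12234 CPM in endothelial cells. In satellite glia 7 Schwann cell markers summed to 1124 to 2096 CPM, against 438 to 514 in neurons. There 5 fibroblast markers summed to 193 to 436 CPM, against 0.997 to 2.76 in neurons. Whether other cells were among the satellite glia was not tested.

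A ribosome is built from a small subunit, which reads the mRNA, and a large subunit, which joins the amino acids. Each subunit holds 1 copy of most of its proteins, so cells make these proteins in matched amounts. Their mRNAs are among the most abundant of a cell, and most begin with a run of pyrimidines (the 5′ terminal oligopyrimidine, or TOP, motif) through which the mTOR pathway controls their translation. Neurons keep many ribosomes in the cell body, seen as Nissl substance, and carry some ribosomal protein mRNAs into their axons. Counts of mRNA show neither the number of ribosomes nor the rate of translation.

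RefSeq promoter windows of build GRCm38.p6 were matched for 61 of the 82 genes by symbol. A run of at least 5 pyrimidines covered the annotated first base in 20 of the 61 (32.8%), against 3191 of 27025 genes with a window (11.8%). The letters CCGGAAG, the core bound by ETS transcription factors, were present on either strand between 250 bases before and 50 bases after the start in 24 of the 61 (39.3%), against 2683 of all genes (9.93%). The reverse complement of these letters holds a pyrimidine stretch, so both searches can meet at the same bases. The windows of 6 genes that recur in the results are printed from 40 bases before the start to 20 bases from it, 5′ to 3′ on the gene's strand, with the pyrimidine run over the annotated start in capitals. The first 3 have such a run, and the last 3 have none at the annotated base.
Rps27 (chr3:90213629-90213688, minus strand): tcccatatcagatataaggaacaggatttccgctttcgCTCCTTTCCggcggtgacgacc
Rpl28 (chr7:4792925-4792984, plus strand): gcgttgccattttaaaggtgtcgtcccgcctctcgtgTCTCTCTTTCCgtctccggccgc
Rpl38 (chr11:114668540-114668599, plus strand): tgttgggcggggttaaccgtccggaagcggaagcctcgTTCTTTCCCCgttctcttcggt
Rpl18 (chr7:45718031-45718090, plus strand): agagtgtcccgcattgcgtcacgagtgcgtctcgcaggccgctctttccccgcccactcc
Rps12 (chr10:23787190-23787249, minus strand): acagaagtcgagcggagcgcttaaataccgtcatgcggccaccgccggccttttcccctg
Rps27l (chr9:66946046-66946105, plus strand): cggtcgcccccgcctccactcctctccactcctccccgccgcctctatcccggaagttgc
In Rpl18 a pyrimidine stretch began right after the annotated base, so the count of 20 rests on the exact start that RefSeq gives.

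Together the 82 genes took between 6.50% and 8.36% of all UMIs of a library. Over the 14 types the mean share ranged more widely, from 5.97% to 13.3%. Outside endothelial cells and NP_Nts neurons, the type means spanned 5.97% to 8.44%. Libraries of 1 type could span more than that, as in Th (5.82% to 10.4%). Endothelial cells had the highest share, with 13.5%, 14.6%, 12.8%, 13.4% and 12.4% in libraries 1 to 5 and a mean of 13.3% ± 0.826 (SD, n = 5). NP_Nts neurons, which express neurotensin, came next with 10.1% ± 0.525 and stood below endothelial cells in every library, by 3.19 ± 0.453 percentage points. Satellite glia had the lowest share, 5.97% ± 0.632, with 5.49%, 7.06%, 5.82%, 5.57% and 5.91% by library.

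**Figure D1:**
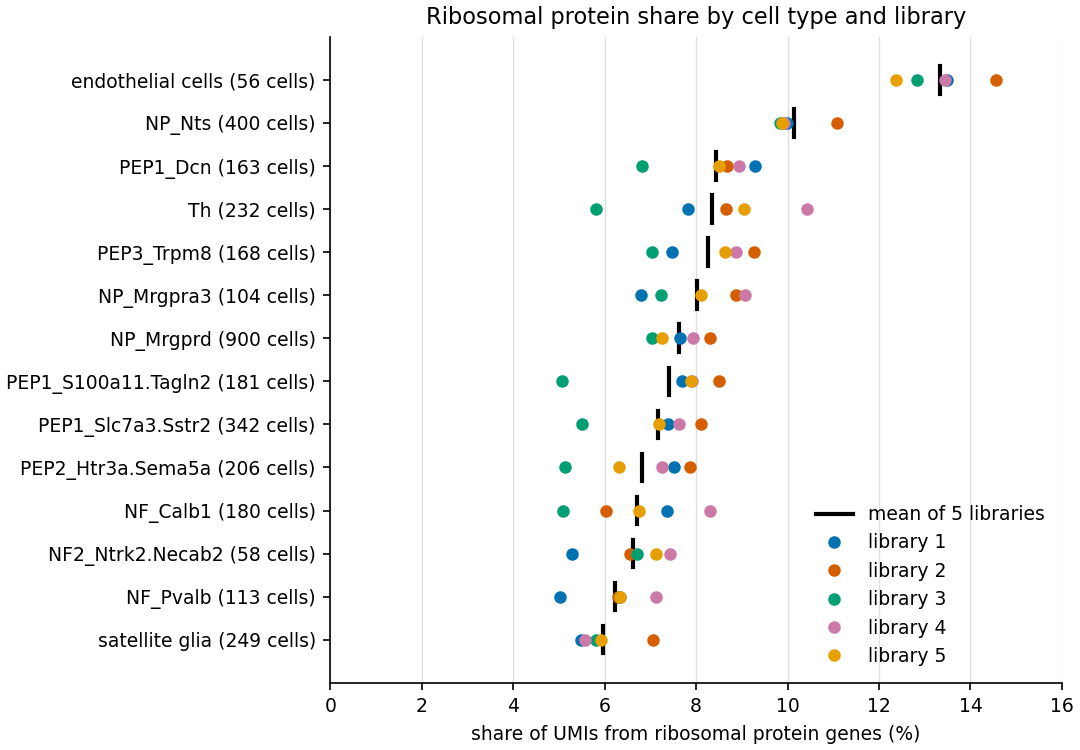
Share of UMIs from the 82 ribosomal protein genes (horizontal axis, %) in each of the 14 annotated types (rows, with their number of cells). Points are the 5 libraries and black bars are their means; the 5 endothelial points lie between 12.4% and 14.6%, above all points of the other types, and the NP_Nts points between 9.84% and 11.1%.

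The other 11 neuron types formed a graded order. PEP1_Dcn had 8.44% ± 0.955, Th 8.36% ± 1.70, PEP3_Trpm8 8.26% ± 0.951, NP_Mrgpra3 8.02% ± 0.991 and NP_Mrgprd 7.63% ± 0.512. PEP1_S100a11.Tagln2 had 7.41% ± 1.35, PEP1_Slc7a3.Sstr2 7.16% ± 0.990 and PEP2_Htr3a.Sema5a 6.82% ± 1.11. The 3 neurofilament types were at the low end, with NF_Calb1 at 6.71% ± 1.23, NF2_Ntrk2.Necab2 at 6.62% ± 0.822 and NF_Pvalb, the proprioceptor type, at 6.22% ± 0.756. NP_Nts exceeded PEP1_Dcn by 1.70 ± 0.977 points, in 5 of 5 libraries. From PEP1_Dcn down to satellite glia, neighbours in this order differed by 0.0872 to 0.398 points, and in all but 1 of these steps the difference was below its SD over libraries. That step was from NF2_Ntrk2.Necab2 to NF_Pvalb (0.398 ± 0.215, in 5 of 5 libraries).

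Libraries also differed within a type. In library 3 the share was the lowest of the 5 in all 5 PEP types, in Th, in NF_Calb1, in NP_Nts and in NP_Mrgprd, for example 5.06% in PEP1_S100a11.Tagln2 against 7.68% to 8.50% in the other libraries. Whether this reflects the animal or the preparation was not tested.

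The share is a proportion, and the cells differed in total RNA captured. A median endothelial cell held 2106 ribosomal protein UMIs of 16889 in all, a median satellite glial cell 988 of 17729, and a median NP_Mrgprd neuron 8258 of 105150. Endothelial cells thus held fewer ribosomal protein UMIs per cell than any neuron type, of which PEP3_Trpm8 had the lowest median, 2669. Satellite glia had about the same UMIs per cell as endothelial cells and fewer from ribosomal protein genes.

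The share was 1.74 times as high in endothelial cells as in neurons (mean over the 12 neuron types, 7.65% ± 0.760), with differences of 4.62 to 6.38 points in the 5 libraries. It was 2.23 times as high as in satellite glia, with differences of 6.46 to 7.99 points. Satellite glia were below neurons by 0.649 to 2.84 points in the 5 libraries (mean difference -1.68 ± 0.838). The NF types (6.52% ± 0.698) were below the NP types (8.60% ± 0.585) in every library (mean difference -2.08 ± 0.676), and the PEP types (7.62% ± 0.999) were below the NP types in every library (mean difference -0.980 ± 0.688). In each of these 5 differences the exact two-sided sign-flip permutation test over the 5 libraries gave p = 0.063, the smallest value that 5 libraries allow, and 0.075 after adjustment over the 6 differences. NF and PEP types differed by -1.10 ± 0.985 points, with 4 of 5 libraries in that direction and library 3 at 0.135 (exact p = 0.125).

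The mitochondrial share of UMIs also differed between these groups. It was 6.77% to 7.19% in the NF types, 3.82% to 4.86% in the NP types, 4.32% to 6.16% in the PEP types, 7.25% in Th, 6.36% in satellite glia and 3.65% in endothelial cells. Th neurons thus had the highest mitochondrial share of the 14 types beside a high ribosomal protein share. With mitochondrial genes taken out of the total, the difference was -1.98 points for NF against NP and 5.71 points for endothelial cells against neurons. Immediate early genes, which respond to stress and dissociation, also differed: 10 of them summed to 9729 to 13979 CPM in endothelial cells, 4232 to 6647 in satellite glia and 2012 to 2236 in neurons. Among neurons they summed to 1048 to 1327 CPM in NF, 1813 to 2414 in NP and 2678 to 2994 in PEP types. Their part in the ribosomal protein differences was not tested.

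The ratio of small to large subunit UMIs lay in a narrow range in neurons and satellite glia and was higher in endothelial cells. Small subunit genes gave 0.591 to 0.656 UMIs for each large subunit UMI in the 12 neuron types, and 0.632 ± 0.00892 in satellite glia. Endothelial cells had 0.726 ± 0.0143, with 0.736, 0.736, 0.730, 0.726 and 0.701 by library, all above every value of the other types, of which the highest was 0.677 in PEP3_Trpm8. The lowest mean was in PEP2_Htr3a.Sema5a (0.591 ± 0.0109).

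Single genes were tested with edgeR's quasi-likelihood test on UMIs summed per type and library, with the library as a block and Benjamini-Hochberg adjustment over the 11886 genes tested. A log2 fold change (log2FC) below is from this fit, on its TMM scale, with its standard error (SE). A level is in CPM of the summed UMIs. Because the reads come from the 3′ ends, CPM is not divided by transcript length, and levels of different genes were not compared for amount of protein. The study drew its clusters from the same counts, so the types are not independent of the genes. The low-count filter kept 79 of the 82. The 3 that it removed were Rpl10l (29 UMIs in all cells) and Rpl3l (46 UMIs), copies used mainly in testis and in striated muscle, and Rpl26 (234 UMIs).

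In endothelial cells against neurons, 72 of the 79 genes were higher and 1 was lower, while 27% of all genes tested were higher and 38.1% lower. The median log2FC of the 79 was 0.84, against -0.60 over all genes tested. At the 2-fold level, 29 were higher, which did not set these genes apart. The 75th percentile of log2FC was 1.11 for the 79 and 0.974 over all genes tested. The 95th was 1.53 and 5.20. Both subunits took part, with 31 small and 41 large subunit genes among the 72. The 6 that did not pass were Rpl3, Rpl10, Rpl10a, Rpl11, Rpl36al and Rpl38.

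The largest increase was that of Rps27 (chr3:90212667-90213648), a small subunit protein with a zinc finger. Its level was 69.7, 55.1, 43.9, 45.0 and 33.3 CPM in the neurons of libraries 1 to 5 and 309, 261, 222, 179 and 120 CPM in endothelial cells. All endothelial values lay above all neuron values (log2FC 2.30, SE 0.157, adjusted p = 1.04e-21). Rps12 (chr10:23785183-23787383), a small subunit protein, was at 301, 402, 229, 381 and 291 CPM in neurons and at 978, 1221, 768, 993 and 674 CPM in endothelial cells, again without overlap (log2FC 1.65, SE 0.110, adjusted p = 4.23e-22). Rpl18, a large subunit protein, was at 453 to 578 CPM in neurons and at 1235 to 1664 CPM in endothelial cells (log2FC 1.61, SE 0.0807, adjusted p = 5.86e-29). These 3 windows are among those printed above.

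Rpl3, which lies close to the catalytic centre of the large subunit, did not share the increase. It was at 1783, 1818, 1642, 1974 and 1950 CPM in neurons and at 1235, 1426, 1562, 1425 and 1700 CPM in endothelial cells, with log2FC -0.20 (SE 0.111, adjusted p = 0.107). It was lower with library size alone (adjusted p = 0.0151), without the low-count filter (adjusted p = 0.0178) and without library 3 (adjusted p = 0.00768). Rpl38, a large subunit protein known for its role in the translation of Hox mRNAs in the embryo, had log2FC -0.04 (adjusted p = 0.786), at 1388 ± 189 CPM in neurons and 1264 ± 217 CPM in endothelial cells. The 1 lower gene was Rps4l (log2FC -1.31, SE 0.503, adjusted p = 0.0188), which had only 20 UMIs in endothelial cells, and without library 2 its adjusted p was 0.0612. These values differed from those of Rps4x, the X-linked small subunit gene that it resembles, which was higher (log2FC 0.94, adjusted p = 4.55e-15).

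Against satellite glia, 73 of the 79 were higher in endothelial cells and 1 was lower, while 15.2% of all genes tested were higher and 28.9% lower. The median log2FC was 0.87, against -0.47 over all genes. Rps12 (log2FC 1.71, SE 0.160), Rps27 (1.61, SE 0.192) and Rps20 (1.53, SE 0.150) differed most. Rps20 was at 305, 483, 319, 376 and 390 CPM in satellite glia and at 1115, 1647, 1038, 1206 and 1275 CPM in endothelial cells, without overlap. The 1 lower gene, Rps27l (log2FC -0.38, adjusted p = 0.0309), lost its call when library 2 was left out (adjusted p = 0.235), when library 5 was left out (adjusted p = 0.136) and under DESeq2 (adjusted p = 0.322). In edgeR the call was also lost with library size alone (adjusted p = 0.330) and with sums of at least 10 cells (adjusted p = 0.184). The same held without the cells over 10% mitochondrial UMIs (adjusted p = 0.0777) and without the library block (adjusted p = 0.0549).

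The endothelial sums held transcripts from marker lists of other cells. Haemoglobin genes gave 4800 CPM in library 3 and 16632 CPM in library 4, and at most 9.92 CPM in the other 3. The satellite glia markers summed to 1527 to 15254 CPM in endothelial cells, with 1 of the 7 at 0. Of the 6 tested, 1 was higher in endothelial cells than in satellite glia (log2FC 0.776) and 5 were lower. Of all genes tested, 15.2% were higher and 28.9% lower in that comparison. How much of this marker sum came from glia was not tested. With libraries 3 and 4 left out, 69 genes were higher than in neurons and 68 higher than in satellite glia. The satellite glia markers remain in the other libraries, and the part of other cells' RNA in the increase was not tested.

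**Figure D2:**
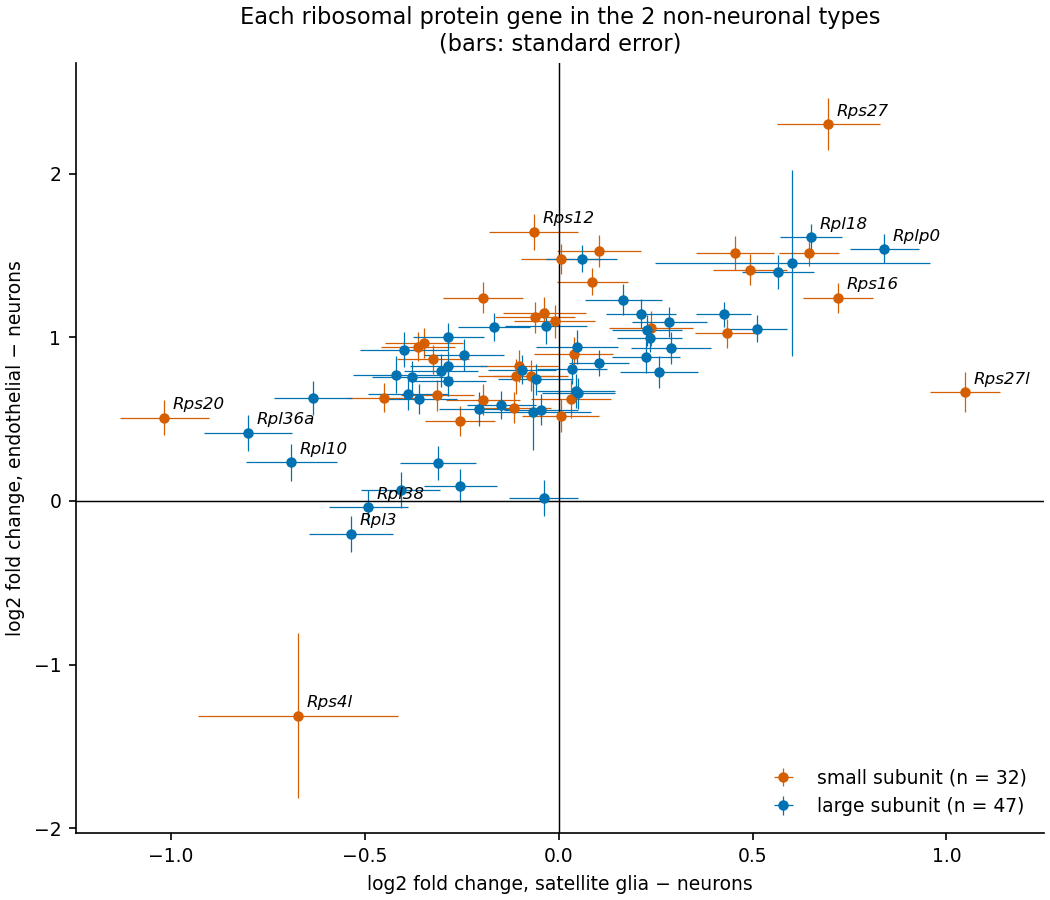
Each of the 79 ribosomal protein genes tested, by its log2 fold change against neurons in satellite glia (horizontal axis) and in endothelial cells (vertical axis), with standard errors; colours give the subunit. Most genes lie above 0 on the vertical axis and spread to both sides of 0 on the horizontal axis, from Rps20 at -1.02 to Rps27l at 1.05. The axes share the neuron samples, so a diagonal trend is not independent.

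Satellite glia against neurons gave no common direction: 20 of the 79 genes were higher and 26 lower, while 37% of all genes tested were higher and 37.8% lower. The median log2FC was -0.06, against -0.11 over all genes. These counts depend on the scaling. With library size alone, which moved the median of all genes to -0.42, 11 were higher and 56 lower (median -0.34), and with DESeq2's size factors 15 were higher and 35 lower. Relative to the median of all genes, the median of the ribosomal protein genes was 0.05 higher with TMM, 0.08 higher with library size and 0.05 higher with DESeq2, and stood at -0.01 without the cells over 10% mitochondrial UMIs. The counts and the sign of the median also moved with single libraries. There were 12 higher and 27 lower without library 2 (median -0.10), and 12 higher and 30 lower without library 3 (median -0.16). The larger number turned to the higher genes in the other refits, with 22 higher and 19 lower without library 1, 20 and 15 without library 4, and 22 and 15 without library 5, each with a median of 0.04. The genes named next kept their direction and passed the test under every alternative run, except where stated.

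Rps27l (chr9:66944624-66949522), a p53 target and the near copy of Rps27, was higher in satellite glia: 345, 404, 354, 364 and 442 CPM against 225, 224, 199, 241 and 246 CPM in neurons, without overlap (log2FC 1.05, SE 0.0895, adjusted p = 2.33e-17). Rplp0, which anchors the stalk of the large subunit, was at 1352 to 1894 CPM in satellite glia and at 974 to 1232 CPM in neurons (log2FC 0.84, SE 0.0897, adjusted p = 2.35e-13). Rps16, a small subunit protein, was at 1097 to 1284 CPM against 758 to 1008 CPM (log2FC 0.72, SE 0.0898, adjusted p = 5.88e-11). Both groups of values stood apart for these genes.

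Rps20 (chr4:3831584-3835655), which sits in the head of the small subunit, went the other way. It was at 305 to 483 CPM in satellite glia against 882, 1082, 707, 1164 and 948 CPM in neurons (log2FC -1.02, SE 0.115, adjusted p = 1.90e-12). The large subunit genes Rpl36a (log2FC -0.80, SE 0.113, adjusted p = 2.83e-09) and Rpl10 (log2FC -0.69, SE 0.118, adjusted p = 3.24e-07) were also lower. Rpl36a was at 363 to 459 CPM in satellite glia and at 743 to 1019 CPM in neurons, and Rpl10 at 772 to 1326 CPM and at 1674 to 2387 CPM, without overlap in either gene.

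Among neurons, 78 of the 79 genes differed between the 12 types by the F-test of the same fit, where 96.7% of all genes tested did. The exception was Rpl35a (adjusted p = 0.0749), whose highest type was 1.31 times its lowest. Over the 79 genes, the ratio of the highest to the lowest neuron type ranged from 1.31 to 17.5 with a median of 1.85. NP_Nts was the highest neuron type for 64 of the 79 and NF_Pvalb the lowest for 38. The same counts were not made over all genes tested, so whether they are particular to these genes is not known. The 5 smallest adjusted p-values of this F-test (edgeR, Benjamini-Hochberg) were those of Rps4l (5.89e-25), Rpl18 (1.17e-24), Rpl4 (2.85e-22), Rps2 (6.74e-20) and Rpl28 (2.19e-19).

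**Figure D3:**
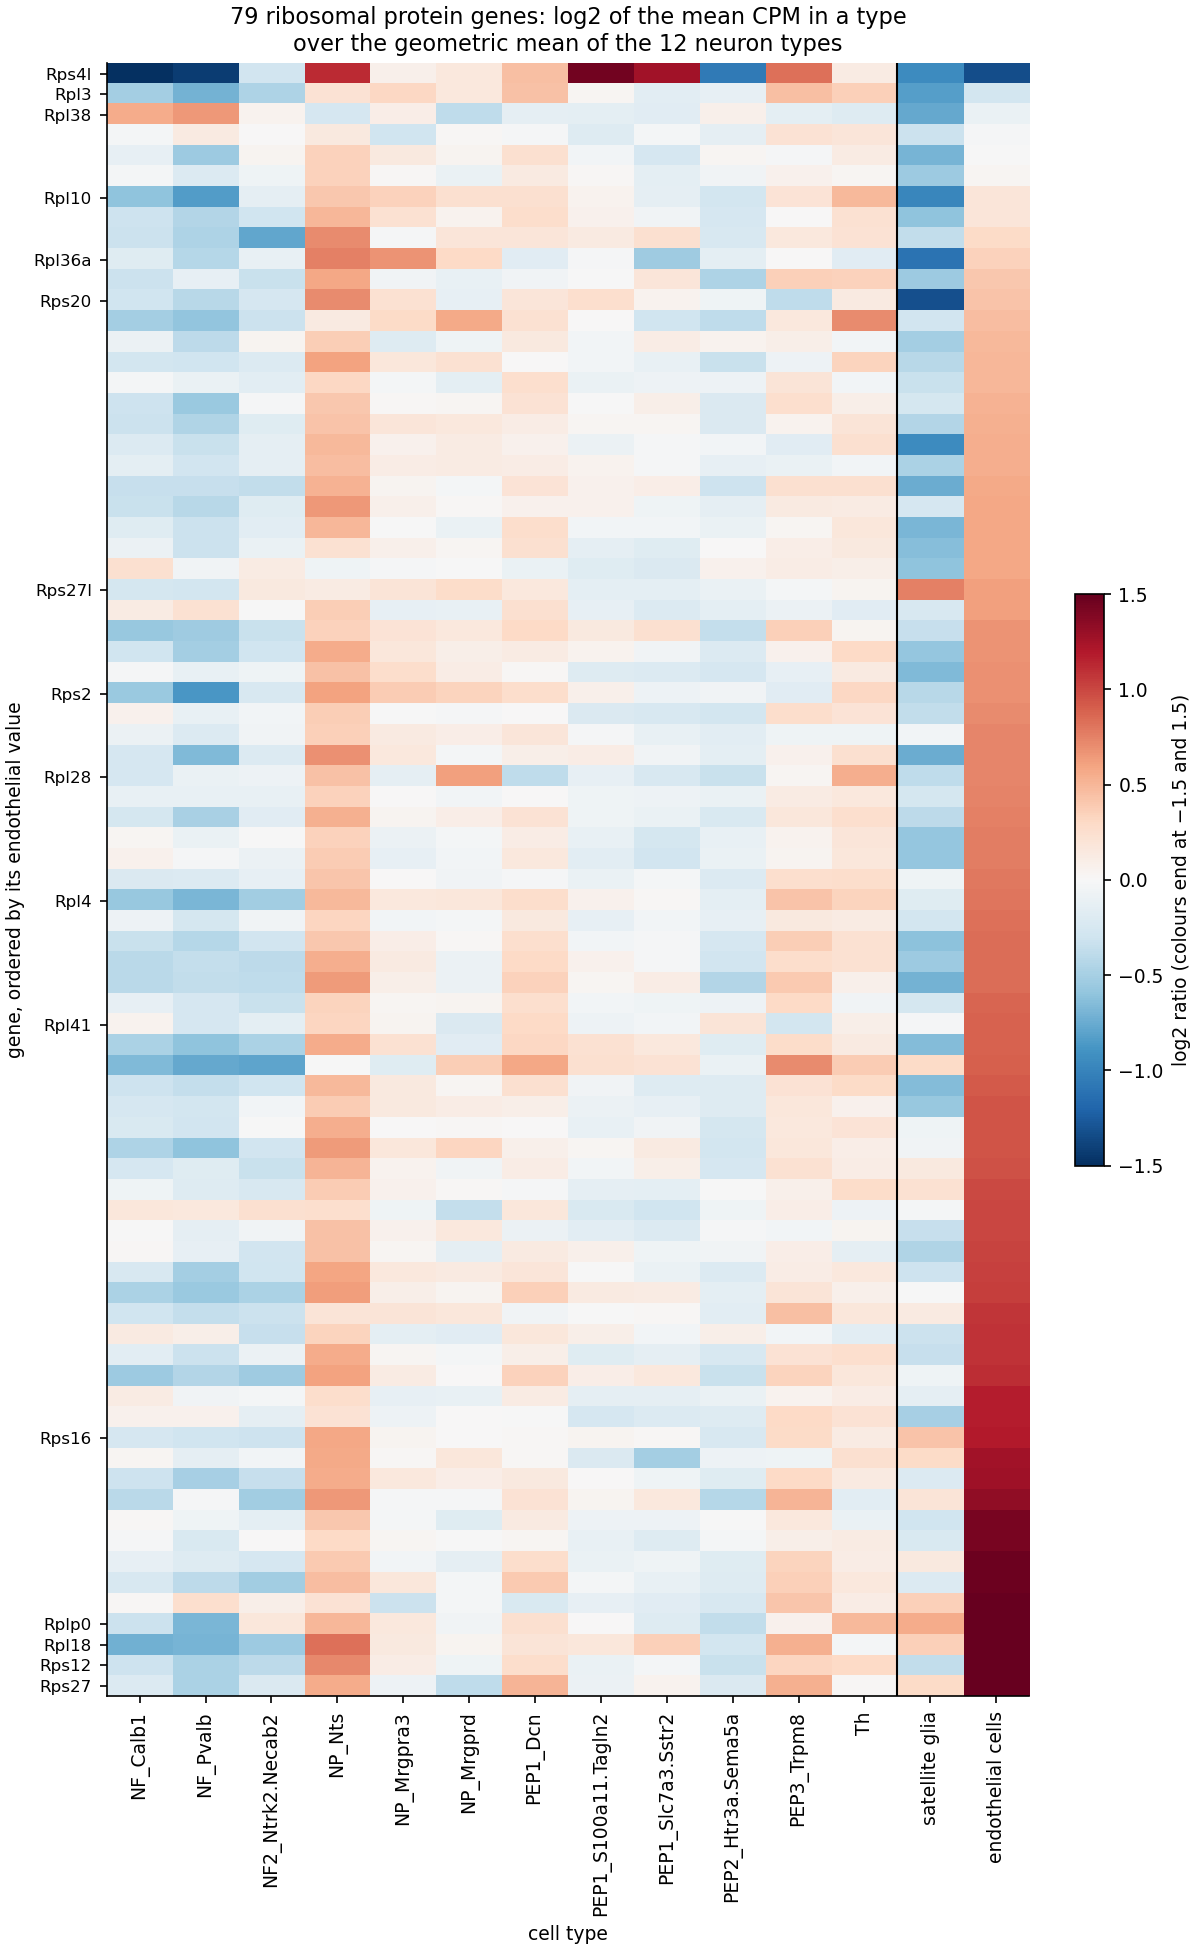
Level of the 79 genes tested (rows) in the 14 types (columns) as log2 of the mean CPM over 5 libraries divided by the geometric mean of the 12 neuron types. Red is higher and blue lower. Some of the genes named in the text are labelled. The NP_Nts column is red for most genes, the NF_Pvalb column blue for most, and Rps4l and Rpl38 depart from the rest.

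The neurofilament types had lower levels than the non-peptidergic types. In NF against NP, 71 of the 79 genes were lower and 1 was higher, while 38.2% of all genes tested were lower and 37.3% higher. The median log2FC was -0.54, against -0.02 over all genes. With library size alone, which put the median of all genes at 0.10, 67 were lower and 4 higher, and with DESeq2, which put it at 0.22, 63 were lower and 5 higher. Relative to that median the ribosomal protein genes stood at -0.52 in the main fit, -0.52 with library size and -0.57 with DESeq2. Rpl18 was at 296, 329, 287, 374 and 315 CPM in NF and at 623, 703, 609, 690 and 648 CPM in NP types (log2FC -1.12, SE 0.0659, adjusted p = 2.07e-25). Rps2, a small subunit protein near the mRNA entry channel, was at 245 to 300 CPM against 448 to 551 CPM (log2FC -1.12, SE 0.0727, adjusted p = 4.93e-23). Rpl4, which lines the exit tunnel of the large subunit, was at 458 to 524 CPM against 862 to 948 CPM (log2FC -0.99, SE 0.0600, adjusted p = 1.05e-24). In all 3 genes the groups stood well apart.

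Rpl38 (chr11:114667818-114672333) was the 1 higher gene. It was at 1929, 1972, 1980.0, 1616 and 1718 CPM in NF and at 1168, 1533, 1276, 984 and 1087 CPM in NP types, without overlap (log2FC 0.48, SE 0.0738, adjusted p = 2.04e-08). Its highest type was NF_Pvalb with 2135 ± 357 CPM, followed by NF_Calb1 with 1991 ± 273 CPM, whose difference was within their spread. Rps28 (log2FC 0.14, adjusted p = 0.118) and Rps13 (log2FC 0.03, adjusted p = 0.696), both small subunit genes, had the next highest values and did not pass. Both passed as higher with library size alone, with DESeq2 and without the cells over 10% mitochondrial UMIs, and Rps28 also with sums of at least 10 cells. The NF types were not alike in Rpl38, since NF2_Ntrk2.Necab2 had 1402 ± 124 CPM, close to NP_Mrgpra3 with 1447 ± 277 CPM.

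In NF against PEP types, 52 genes were lower and 5 higher, while 36.6% of all genes tested were lower and 34% higher. The median log2FC was -0.24, against -0.05 over all genes. The 5 higher genes were Rpl38 (log2FC 0.52, SE 0.0653, adjusted p = 9.46e-11), Rps28 (0.26, SE 0.0759), Rps13 (0.17, SE 0.0562), Rps21 (0.17, adjusted p = 0.0148) and Rpl36 (0.17, adjusted p = 0.0300), where Rps21 and Rpl36 were named after their values were seen. DESeq2 gave 42 lower and 14 higher, and the fit without cells over 10% mitochondrial UMIs 42 lower and 11 higher. The number of higher genes was 3 without library 3, 1 without library 4 and 2 without library 5. Rps28 did not pass without library 4 (adjusted p = 0.0685), nor Rps13 without library 4 or 5 (adjusted p = 0.0758 and 0.0772). Rps4l (log2FC -2.08, SE 0.151, adjusted p = 2.10e-20), Rpl18 (-0.86, SE 0.0606) and Rpl4 (-0.73, SE 0.0549) had the lowest values.

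In PEP against NP types, 67 of the 79 genes were lower and 0 higher, while 31.8% of all genes tested were lower and 34.3% higher. The median log2FC was -0.26, against 0.03 over all genes, and all 79 lay below the median of all genes. The highest log2FC of the 79 was -0.03 in the edgeR fit, so 0 were higher at an unadjusted p under 0.05, and DESeq2 also called 0 higher. DESeq2 and library size alone, which both put the median of all genes at 0.15, called 55 and 52 lower. Rpl36a was at 823, 873, 554, 851 and 781 CPM in PEP and at 1262, 1350.2, 1204, 1421 and 1295 CPM in NP types, without overlap (log2FC -0.87, SE 0.0693, adjusted p = 1.90e-18). Rpl28 followed (log2FC -0.63, SE 0.0576, adjusted p = 9.13e-16). This gene, which encodes a large subunit protein absent from yeast, was at 456 to 660 CPM in PEP and at 749 to 975 CPM in NP types. Its highest neuron type was NP_Mrgprd and its lowest PEP1_Dcn. The 3 comparisons among neurons share samples in pairs and are not independent of each other.

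**Figure D4:**
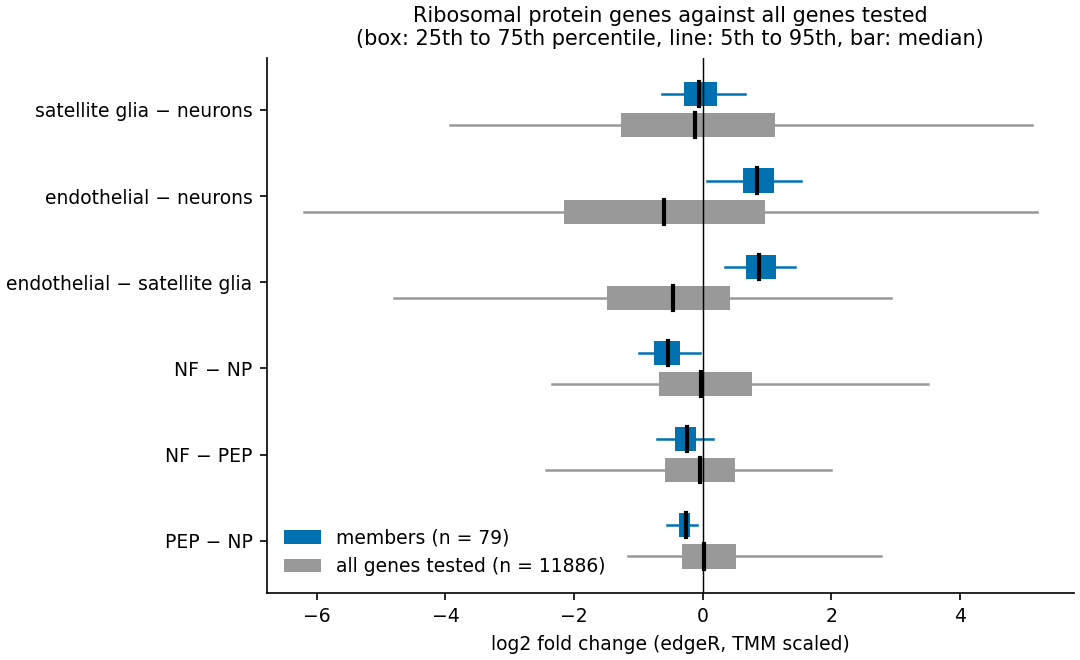
Distribution of log2 fold changes in the 6 comparisons (rows) for the 79 ribosomal protein genes (blue) and all 11886 genes tested (grey). Boxes span the 25th to 75th percentile, lines the 5th to 95th, and black bars mark medians; the blue medians run from -0.54 in NF against NP to 0.87 in endothelial cells against satellite glia, with a narrow spread beside the grey.

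Rps4l had the largest ratio among neuron types. RefSeq lists it as a transcribed pseudogene at chr6:148354656-148355596, and it carried 14351 UMIs in all, with 84.1% of its 55-base stretches unique. In NF_Calb1 it was at 9.07 ± 3.57 CPM and in PEP1_S100a11.Tagln2 at 159 ± 50 CPM, a ratio of 17.5. NF_Pvalb had 21.8 ± 3.67 CPM and PEP2_Htr3a.Sema5a 27.9 ± 9.11 CPM, while PEP1_Slc7a3.Sstr2 had 139 ± 32.2 and NP_Nts 126 ± 33.8 CPM. The types did not divide by class, because PEP2_Htr3a.Sema5a, a peptidergic type, sat near the NF types. NF2_Ntrk2.Necab2 averaged 48.0 ± 50.4 CPM, with 136 CPM in library 1, where that type had 3 cells, and 12.5 to 40 CPM in the other 4. By class it was at 56.7, 23.7, 20.1, 12.2 and 18.9 CPM in NF and at 104, 80.7, 88.6, 90.1 and 58.5 CPM in NP types (log2FC -2.11, SE 0.158, adjusted p = 4.50e-20). Rps4x, by contrast, differed 2.23-fold between its highest and lowest neuron types.

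**Figure D5:**
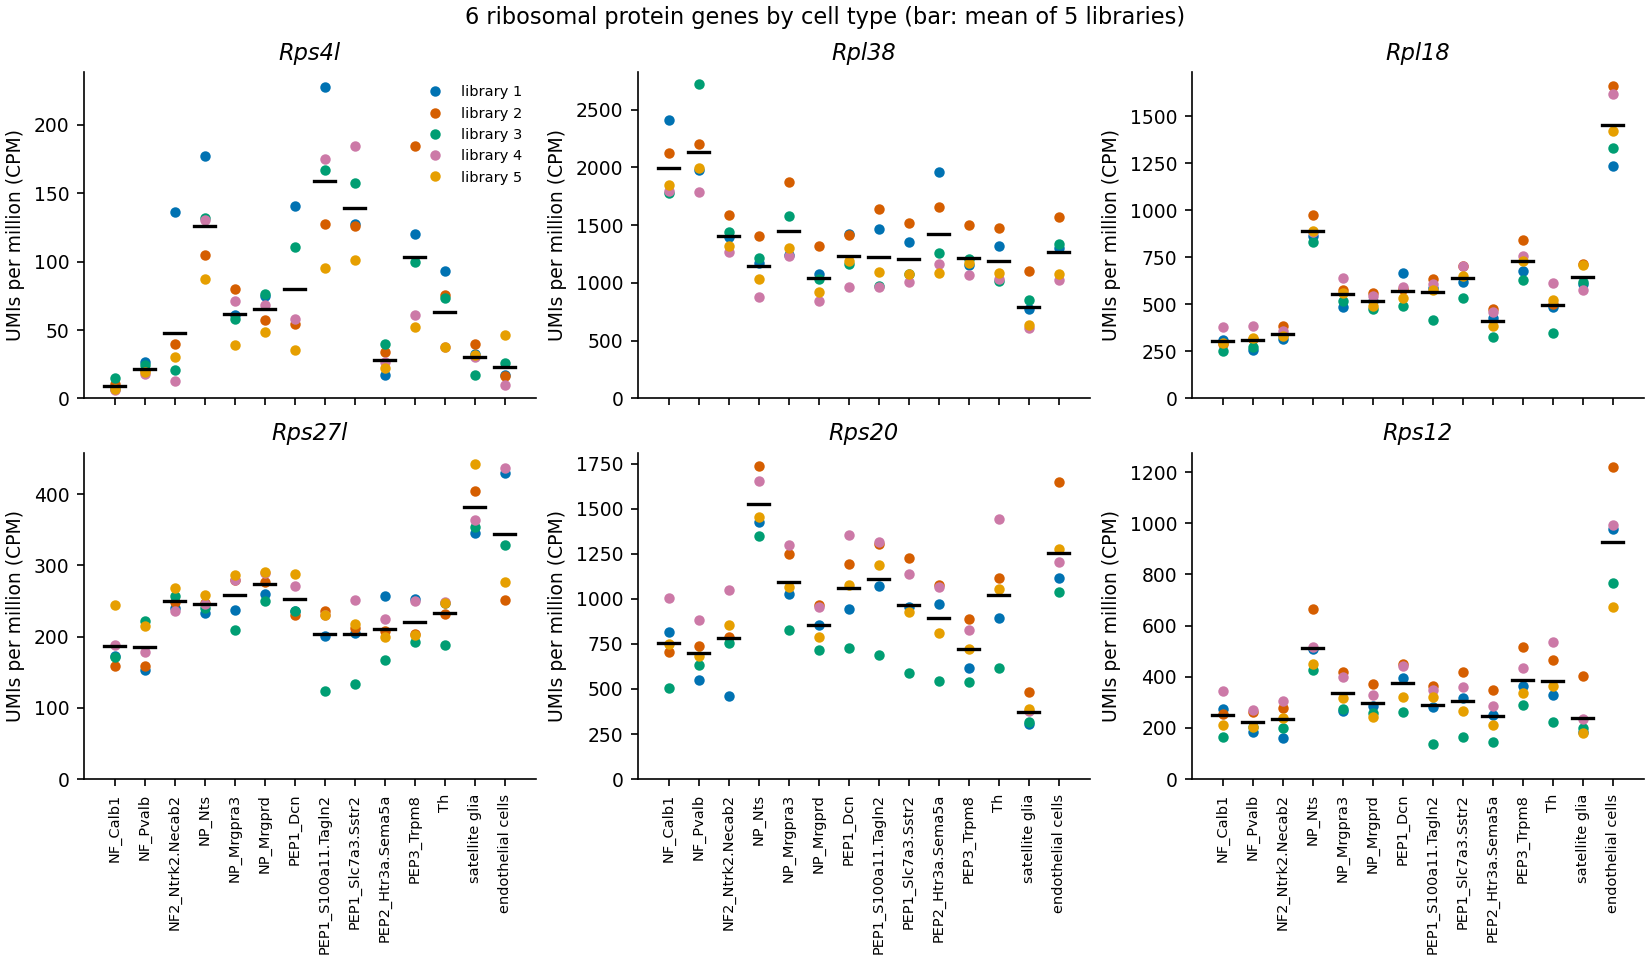
Level in CPM (vertical axes, from 0) of Rps4l, Rpl38, Rpl18, Rps27l, Rps20 and Rps12 in the 14 types (horizontal axes), with points for the 5 libraries and bars for their means. Rps4l is near 0 in NF_Calb1, Rpl38 is highest in 2 NF types, Rps27l in satellite glia, and Rpl18 and Rps12 in endothelial cells.

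Levels of the genes spanned a wide range. Rpl41, which encodes the smallest ribosomal protein, was the highest with a mean of 3971 CPM over the 14 types and 4.78% of all ribosomal protein UMIs. Rpl10 (2006 CPM), Rps29 (1989), Rpl13 (1892) and Rplp1 (1812), the last a stalk protein, followed. In endothelial cells Rpl41 was at 6848 ± 119 CPM and in neurons at 3756 ± 464 CPM (log2FC 0.93, adjusted p = 2.62e-13). At the low end, besides the 3 genes removed, were Rpl30 with 4.11 CPM and Rpl34 with 43.4 CPM. Ribosomal protein genes have many processed pseudogenes, and how reads matching more than 1 gene were treated is not stated in the sources used here. Whether this lowered any of these counts was not tested. In the last 300 bases of the longest coding transcript, 54 of the 82 genes shared a stretch of 55 bases, the length of the transcript read, with another annotated gene (GENCODE vM21). Over the set, the percent of such stretches unique to the gene and its total UMIs had a Spearman correlation of -0.0758. For Rps27, Rpl10 and Rpl36a no stretch was unique to the gene. The unique part was 5.69% in Rps12, 11% in Rpl36, 13.4% in Rpl10a, 17.1% in Rpl13 and 19.1% in Rpl18. It was 20.3% in Rpl30, 24.0% in Rpl3, 24.4% in Rps2, 26.8% in Rpl7 and 31.7% in Rpl36al. Rpl26 had 34.1%, Rpl38 35.4%, Rpl41 39.8%, Rpl34 68.7% and Rpl39 82.5%. The levels and differences of these genes, and of any other of the 54, are uncertain. Rps27l, Rps20, Rpl4 and Rpl28 were fully unique.

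Several genes belong to pairs of near copies. The counted level of Rps27l was above that of Rps27 in satellite glia (382 ± 40.4 against 58.8 ± 15.3 CPM). In endothelial cells the gap was smaller (345 ± 85.3 against 218 ± 72.9 CPM). No stretch of read length was unique to Rps27, while Rps27l was fully unique. The level and differences of Rps27 are therefore uncertain, and so is which of the 2 had more mRNA. The 2 moved unlike each other: Rps27 had log2FC 2.30 in endothelial cells against neurons and Rps27l 0.66 (SE 0.123). Rpl22, at 206 ± 23.7 CPM in neurons, was higher in satellite glia (log2FC 0.57, SE 0.0925) and in endothelial cells (1.40, SE 0.105), while its paralogue Rpl22l1, at 370 CPM in neurons, was lower in satellite glia (-0.36, adjusted p = 0.00163) and gave -0.17 (adjusted p = 0.253) in endothelial cells. In PEP against NP types Rpl22 was lower (-0.55) and Rpl22l1 higher (0.40, adjusted p = 2.53e-07). Rpl36a and its autosomal copy Rpl36al also parted: Rpl36al passed none of the 6 comparisons between groups, with log2FC of -0.11 to 0.06. Rpl7 and Rpl7l1 were both higher in satellite glia (0.51 and 0.93) and in endothelial cells (1.05 and 1.45). Rpl39 was higher in endothelial cells (0.56, SE 0.102). The difference between partners was not tested in any pair.

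Other genes of translation were counted from fixed lists. Of all genes tested, 27% were higher and 38.1% lower in endothelial cells against neurons, 37.3% higher and 38.2% lower in NF against NP types, and 37% higher and 37.8% lower in satellite glia against neurons, and the counts below stand beside these shares. The 6 cytosolic ribosomal genes with other names or copies, Rps3a1 and Gnb2l1 among them, gave 5 higher and 0 lower in endothelial cells against neurons, and 0 higher and 5 lower in NF against NP types. Gnb2l1, the scaffold protein RACK1 of the small subunit, had log2FC 1.53 (SE 0.0944) and -0.81 (SE 0.0662) in these comparisons. Among 10 elongation factors, 4 were higher and 5 lower in endothelial cells against neurons, and 2 higher and 8 lower in NF against NP types. Eef1a1, which brings charged tRNA to the ribosome, had log2FC 1.14 and -1.84, and its neuronal and muscle form Eef1a2 -4.24 and 0.62. Eef2, which moves the ribosome along the mRNA, was lower in satellite glia (log2FC -1.0, SE 0.0829).

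Of 20 further genes with TOP mRNAs, 13 were higher and 4 lower in endothelial cells against neurons, and 2 higher and 17 lower in NF against NP types, with medians of 0.51 and -0.48. Pabpc1, which binds poly(A) tails, had log2FC 2.75 (SE 0.113) in endothelial cells. The TOP list shares genes with the lists of elongation factors, initiation factors and ribosomal genes with other names. Of 38 initiation factors tested, 13 were higher and 8 lower in endothelial cells, and 7 higher and 25 lower in NF against NP types. Of 57 ribosome biogenesis factors tested, 32 were higher and 8 lower in endothelial cells, and 42 higher and 7 lower in satellite glia, with medians of 0.95 and 1.10. Satellite glia thus had a positive median for biogenesis factors and a median of -0.06 for the ribosomal protein genes. Of 15 regulators of mTOR and TOP mRNAs, 1 was higher and 7 lower in endothelial cells, and 8 were higher and 6 lower in NF against NP types. The 77 mitochondrial ribosomal protein genes, a list added after the values were seen, gave 2 higher and 58 lower in endothelial cells against neurons (median -1.20) and 14 higher and 44 lower in NF against NP types (median -0.20).

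The genes outside the set whose log2 level over the 70 sums was most like that of the summed ribosomal protein genes included ribosomal genes. Pseudogenes of such genes, and genes that are not ribosomal such as Rac1 and Hnrnpab, were also among them. Rps3a1 had Pearson's r of 0.95 and Fau 0.885, followed by Rpl31-ps12, Rps15a-ps6, 1500012F01Rik, Gnb2l1, Rps19-ps3, Npm1, Rac1 and Hnrnpab, the tenth, with 0.777. The sums share libraries and depth, and the 3 pseudogenes can share reads with their parent genes, so these values are a description. Npm1, a nucleolar protein of ribosome assembly, was higher in endothelial cells (log2FC 1.17, SE 0.10) and lower in NF than in NP types (-0.47, SE 0.0699).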

How the data were processed

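The deposited table held raw UMI counts of 17271 rows in 3352 cells, made by the authors with Cell Ranger on mm10 and annotated with Seurat, per the labels; the file of cell types was used as deposited. No normalization had been applied. The 4 rows naming no gene (6.37e-05% of UMIs) were left out. The cell names hold 5 library identifiers that no label names. They were numbered 1 to 5 in identifier order and each taken as 1 mouse, so p-values measure the spread between these libraries. 7 barcodes occurred in more than 1 library, and doublets were not called again. Shares were computed from the summed counts. edgeR 4.0.16 (R 4.3.3) fitted 70 sums with type and library, TMM and filterByExpr, and was tested on simulated data. Types of 1 library deviated together (median r over 91 type pairs 0.0974 to 0.309 per library). The genes, lists and tests were chosen with earlier results of these data known. Members named in the text were the 3 highest and 3 lowest log2 fold changes per comparison, the 5 highest and lowest levels, the 5 smallest F-test p-values, paralogue pairs and genes not tested; exceptions are stated, and some results are not reported here. Alternatives covered scaling, filters, cells, DESeq2 1.42.0 and each library left out.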

Additional observations from a re-analysis of the deposited data

Results flagged for a closer look

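Among 130 sets of 5 library values, 10 had a lowest or highest library that stood apart by Dixon's ratio; chance flags about 1 in 20 sets. The ribosomal protein share in NP_Nts was 11.1% in library 2 against 9.84% to 9.99% in the others, and in satellite glia 7.06% in library 2 against 5.49% to 5.91%. In PEP1_S100a11.Tagln2 it was 5.06% in library 3 against 7.68% to 8.50%. Library 2 was also highest for Rpl39 in satellite glia (920 CPM against 640 to 716) and in endothelial cells (1813 CPM against 1331 to 1407), and in satellite glia for Rps12 (403 CPM against 182 to 234) and Rps2 (341 CPM against 259.9 to 270.0). The others rest on single UMIs: Rpl10l in satellite glia (2.52 CPM in library 1, 0 elsewhere), Rpl26 in endothelial cells (4.96 CPM in library 4, 0 elsewhere) and Rpl3l in endothelial cells (3.31 CPM in library 2, 0 elsewhere). No explanation was tested.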

How the results depend on the processing

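In satellite glia against neurons the median log2 fold change turned from -0.06 to 0.04 without library 1, 4 or 5, with more genes higher than lower (22 and 19, 20 and 15, 22 and 15). The other 5 comparisons kept the sign of their median under the alternatives run. The 6 differences in share kept their side under every alternative run. Of 432 alternatives for 36 named log2 fold changes, 411 kept direction and call, 11 lost and 10 gained it. Library size alone gave 11 higher and 56 lower in satellite glia against neurons, 2 lower in endothelial cells against neurons, 0 lower against satellite glia and 4 higher in NF against NP. DESeq2 gave 0 lower in endothelial cells against satellite glia, 5 higher in NF against NP and 14 higher in NF against PEP. Without cells over 10% mitochondrial UMIs these 3 counts were 0, 3 and 11. Sums of at least 10 cells gave 0 and 2 for the first 2, and no low-count filter gave 2 higher in NF against NP and 2 lower in endothelial cells against neurons. At adjusted p under 0.01, 0 were lower in either endothelial comparison and 3 higher in NF against PEP. Without libraries 3 and 4, an alternative chosen after seeing the data, 0 were lower in endothelial cells against neurons. The cause was not tested.

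Leaving out each library gave 12 to 22 higher and 15 to 30 lower in satellite glia against neurons, 0 to 2 lower in endothelial cells against neurons, 0 to 1 lower against satellite glia, and 1 to 6 higher in NF against PEP. Without the replicate block, the pairing by library, the counts higher and lower were 15 and 23 in satellite glia against neurons, 70 and 1 in endothelial cells against neurons, 72 and 0 against satellite glia, 1 and 70 in NF against NP, 3 and 49 in NF against PEP, and 0 and 60 in PEP against NP, and 73 differed among neuron types. Depth limits the endothelial sums most, since they hold 56 cells in all and 3 in library 1, and Rps4l rests there on 20 UMIs.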

Other observations

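A pattern across libraries, looked for after the values were seen, touched 4 genes. Rps29, Rps28, Rps27 and Rpl38 were lower in both of libraries 4 and 5 than in each of libraries 1 to 3 in 10, 9, 7 and 6 of the 14 types, and higher in 0. No other gene tested showed this in more than 3 types. The median ratio of the mean of libraries 4 and 5 to that of libraries 1 to 3 over types was 0.730 for Rps29, 0.757 for Rps28, 0.662 for Rps27 and 0.799 for Rpl38. In endothelial cells Rps29 was at 4478, 5005 and 4593 CPM in libraries 1 to 3 and at 2870 and 2726 CPM in libraries 4 and 5. Other genes went the opposite way: Rps19 and Rpl35 were higher in both of libraries 4 and 5 in 8 types each (median ratios 1.25 and 1.16). The labels do not tie the libraries to a sex, date or batch, so what separates them was not tested. The library term of the fit takes up such shifts where they are alike in all types.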
